A study of Arabidopsis thaliana with 24 samples.

Results

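The genes described here are 6 stress-responsive transcription factors of Arabidopsis thaliana: CBF1 (AT4G25490), CBF2 (AT4G25470), CBF3 (AT4G25480), DREB2A (AT5G05410), ZAT10 (AT1G27730) and ZAT12 (AT5G59820). They were chosen by gene identifier, with earlier results of these data known, and are 6 of the 28775 genes counted. CBF and DREB2A proteins bear an AP2 domain and activate genes that carry the dehydration-responsive element, also called the C-repeat. CBF transcripts are known for their rapid and brief rise in the cold, and DREB2A for drought and heat, where its protein is otherwise kept low by degradation. ZAT10 and ZAT12 are C2H2 zinc-finger proteins with a repressor motif, known from salt, oxidative and high-light stress, and their short-lived transcripts rise within minutes of many stimuli.

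The series compared wild type Col-0 with the mutant dxo1, each under normal conditions without hormone (NT) or under abscisic acid (ABA), a hormone of drought and seed maturation. All samples are labelled as 12-day-old seedlings on 1/2 MS medium under long days. The mutant is named only as dxo1, after DXO1, an enzyme that removes NAD caps from RNA, and the labels give neither its allele nor the dose and duration of ABA. Each of the 4 conditions was sequenced in 2 replicates by 3 assays, which makes 24 libraries: total RNA, RNA captured through an NAD cap, and GMUCT, which reads uncapped and cleaved RNA through its free 5' phosphate. A GMUCT level is thus a level of RNA that has lost its cap or has been cut, and not of intact transcripts. Nothing in the labels says that replicates were separate cultures, so p-values measure only the spread between these samples, which may be technical.

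Gene counts per library lay between 5.79 and 13.9 M in GMUCT, between 0.751 and 1.53 M in NAD and between 0.878 and 2.03 M in total RNA. Nuclear protein-coding genes took 95.7% to 96.7% of GMUCT counts, but 2.17% to 17.7% of NAD and 12.7% to 26.3% of total RNA counts, with the lowest NAD share in Col-0 ABA replicate 1. DXO1 kept reads in every group. Its GMUCT level, in CPM after TMM scaling, was 27.9 ± 3.40 in Col-0 NT and 31.4 ± 1.25 in Col-0 ABA, against 19.8 ± 2.41 in dxo1 NT and 17.3 ± 2.29 in dxo1 ABA (mean ± SD, n = 2). The ABA-induced dehydrin RAB18 rose with ABA by a log2 fold change of 6.85 in Col-0 and 4.45 in dxo1 in GMUCT. The labels name both seedlings and bud tissue. Of 7 floral identity genes, the summed GMUCT level was 1.17 to 6.76 coding RPM (reads per M reads in nuclear protein-coding genes), against 7351 to 9687 for 5 leaf genes. In total RNA the floral genes LFY, AP1, AP3, PI and SEP1 were at 0 counts, and the other 2 had counts. The floral sum was 0 to 17.4 coding RPM in total RNA and 0 to 15.8 in NAD libraries. The GMUCT sums moved with the hormone: the floral list stood at 4.87 to 6.76 coding RPM in NT and 1.17 to 2.69 in ABA libraries, and a list of 6 root genes at 80.8 to 99.5 in NT and 102 to 132 in ABA libraries. The part of tissue composition in the values below was not tested, and in whole plants fewer cells of a type and less RNA per cell cannot be told apart.

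The 3 CBF genes lie in tandem on chromosome 4 of the TAIR10.1 build, all on the minus strand: CBF2 at chr4:13015250-13016235, CBF3 at chr4:13018010-13019400 and CBF1 at chr4:13021780-13022996. The cluster spans 7747 bases, with gaps of 1774 and 2379 bases between neighbours. Their coding sequences were 87.3% to 87.5% identical over aligned bases. Reads of 50 bases could nevertheless mostly be told apart, since 97.5% of such windows in CBF1, 96.1% in CBF2 and 99.4% in CBF3 occur once in the genome, and 100% in the other members. ZAT10 lies at chr1:9648021-9649323 on the minus strand and ZAT12 at chr5:24102814-24103794 on the plus strand, each with 1 exon. DREB2A at chr5:1602205-1604112 on the plus strand has 2 annotated transcripts. DREB2A overlaps AT5G05420 on the opposite strand, which had 0 to 8 counts in GMUCT libraries and 0 in the other assays, and CBF3 overlaps a long noncoding RNA gene, AT4G07385, that has no row in the files.

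The 300 bases upstream of 4 annotated gene starts are shown because the GMUCT levels of ZAT10 and ZAT12 moved together, those of DREB2A moved differently, and CBF2 had the most reads of the CBF genes. Capitals mark the DRE/CRT core CCGAC, the ABRE core ACGTG through which ABA-responsive bZIP factors bind, the CAMTA core CGCG of calmodulin-binding activators and the W-box core TTGAC of WRKY factors, on either strand. The windows are chr1:9649324-9649623 (minus strand), chr5:24102514-24102813 (plus strand), chr4:13016236-13016535 (minus strand) and chr5:1601905-1602204 (plus strand), in the order printed, from RefSeq TAIR10.1.
ZAT10: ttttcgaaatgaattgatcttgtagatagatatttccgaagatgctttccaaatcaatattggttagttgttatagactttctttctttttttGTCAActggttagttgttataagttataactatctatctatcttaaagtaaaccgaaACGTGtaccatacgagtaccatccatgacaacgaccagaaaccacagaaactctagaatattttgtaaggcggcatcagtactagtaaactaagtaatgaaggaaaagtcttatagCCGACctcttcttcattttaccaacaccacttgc
ZAT12: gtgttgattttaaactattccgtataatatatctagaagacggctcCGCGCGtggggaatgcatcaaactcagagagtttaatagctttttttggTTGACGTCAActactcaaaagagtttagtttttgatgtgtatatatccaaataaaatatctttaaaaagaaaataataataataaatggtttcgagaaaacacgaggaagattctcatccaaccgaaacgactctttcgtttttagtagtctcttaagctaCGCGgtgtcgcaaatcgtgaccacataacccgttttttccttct
CBF2: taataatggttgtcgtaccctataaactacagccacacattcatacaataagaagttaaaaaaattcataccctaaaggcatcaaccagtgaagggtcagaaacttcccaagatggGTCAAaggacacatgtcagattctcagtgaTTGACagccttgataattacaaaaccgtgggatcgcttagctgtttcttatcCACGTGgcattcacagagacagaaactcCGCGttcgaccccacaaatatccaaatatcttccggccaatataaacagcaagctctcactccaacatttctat
DREB2A: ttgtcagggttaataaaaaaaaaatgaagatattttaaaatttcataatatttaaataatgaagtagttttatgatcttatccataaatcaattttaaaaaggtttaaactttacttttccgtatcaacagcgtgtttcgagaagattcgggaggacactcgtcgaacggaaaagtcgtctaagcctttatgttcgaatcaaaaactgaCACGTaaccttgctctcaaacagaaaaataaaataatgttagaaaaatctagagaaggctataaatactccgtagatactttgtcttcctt

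ZAT12 held 3 CAMTA cores, of which a pair overlaps between positions -254 and -249 from the gene start and the last spans -44 to -41. It also held a pair of W-box cores in opposite orientation, at -205 to -201 and -200 to -196. ZAT10 held a DRE/CRT core at -34 to -30, an ABRE core at -150 to -146 and a W-box core at -207 to -203. CBF2 held a G-box, CACGTG, at -102 to -97, which contains an ABRE core on each strand, a CAMTA core at -74 to -71 and W-box cores at -184 to -180 and -154 to -150. DREB2A held only an ABRE core among the motifs searched, at -91 to -87. The E-box CANNTG, searched as well, was found in CBF1, CBF2 and ZAT10, where it overlaps the G-box of CBF2 and the W-box core of ZAT10. Among 27443 upstream windows of the same length at protein-coding genes, CCGAC occurred in 13.9%, ACGTG in 25.6%, CACGTG in 7.09%, CGCG in 11.8%, TTGAC in 50.4% and CANNTG in 61.9%. Of the 6 genes, 1 held CCGAC, 4 ACGTG, 1 CACGTG, 2 CGCG, 3 TTGAC and 3 CANNTG. A match describes letters and is not evidence of binding.

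**Figure D1:**
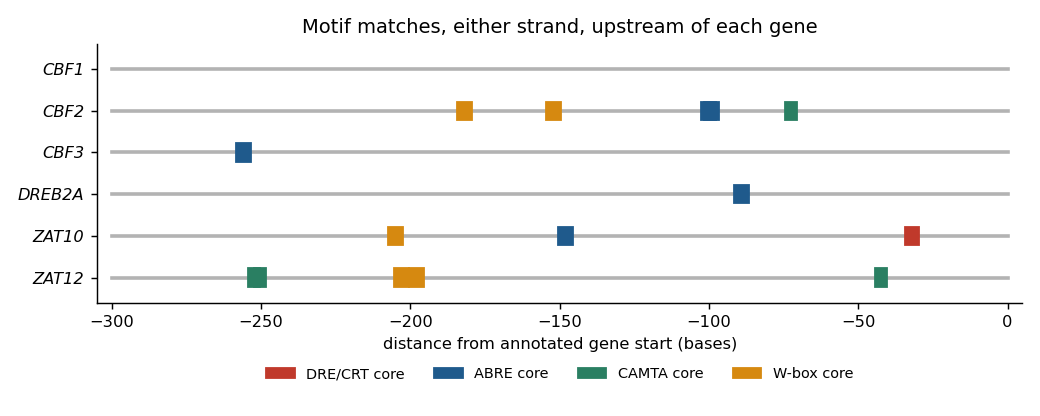
Motif matches in the 300 bases upstream of each gene, with distance from the annotated gene start on the horizontal axis and 1 row per gene. ZAT12 has 3 CAMTA cores, CBF2 has overlapping ABRE cores on both strands, and the DRE/CRT core appears in ZAT10 alone.

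The first comparison asked what ABA did to uncapped RNA of these genes in Col-0. DREB2A, the drought and heat activator, rose 1.84-fold, whereas ZAT12 fell 2.84-fold and ZAT10 fell 2.14-fold. CBF1 and CBF2 did not pass the test, and CBF3 had too few reads for it. ZAT12 stood at 16.6 and 15.4 CPM in Col-0 NT, 5.83 and 5.42 in Col-0 ABA, 12.4 and 11.7 in dxo1 NT, and 27.3 and 32.4 in dxo1 ABA (replicates 1 and 2). Its groups did not overlap, with Col-0 ABA lowest and dxo1 ABA highest. ZAT10 stood at 17.4 and 25.5 CPM in Col-0 NT, 11.1 and 8.71 in Col-0 ABA, 7.95 and 8.55 in dxo1 NT, and 26.7 and 34.5 in dxo1 ABA. Here Col-0 ABA and dxo1 NT were the low groups, and the means of Col-0 ABA and dxo1 NT lay closer together than the replicates of Col-0 ABA. The nearest libraries of Col-0 NT and dxo1 ABA, at 25.5 and 26.7, lay closer together than the replicates of either group. DREB2A stood at 48.1 and 53.2 CPM in Col-0 NT, 89.7 and 97 in Col-0 ABA, 27.1 and 22.5 in dxo1 NT, and 46.8 and 42.1 in dxo1 ABA. Its order differed from that of the ZAT genes: Col-0 ABA was highest, dxo1 NT lowest, and the nearest libraries of Col-0 NT and dxo1 ABA, at 48.1 and 46.8, lay closer together than the replicates of either.

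**Figure D2:**
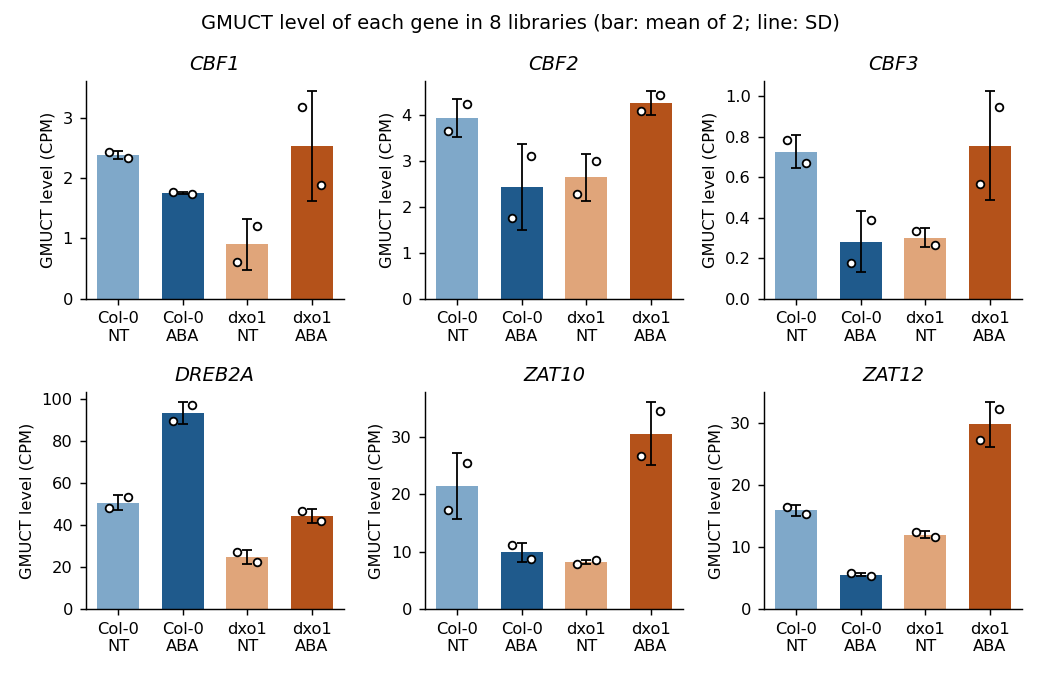
GMUCT level (CPM, vertical axis) of each gene in 4 groups, with 1 point per library, the bar at the mean of 2 libraries and the line showing the SD. ZAT12 is lowest in Col-0 ABA (5.42 and 5.83) and highest in dxo1 ABA (27.3 and 32.4), while DREB2A is highest in Col-0 ABA (89.7 and 97). Vertical scales differ between panels.

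By edgeR's quasi-likelihood test with Benjamini-Hochberg adjustment over 19644 genes, the log2 fold change with ABA in Col-0 was 0.88 ± 0.16 for DREB2A (SE, n = 2 per group, adjusted p = 0.000362), -1.10 ± 0.23 for ZAT10 (adjusted p = 0.00157) and -1.50 ± 0.22 for ZAT12 (adjusted p = 4.34e-05). Of the 5 members tested, 1 was higher and 2 were lower, against 26.7% of all genes called, 2745 of them higher and 2505 lower. CBF1 had a change of -0.44 ± 0.48 (adjusted p = 0.538) and CBF2 one of -0.70 ± 0.38 (adjusted p = 0.184). Each of the called changes kept its direction and passed under all 12 alternatives run.

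In dxo1, ABA was associated with higher levels of 3 members and lower levels of none of the 5 tested, against 7.68% of all genes called, with 5.15% higher. ZAT10 rose 3.71-fold (1.89 ± 0.21 on the log2 scale, adjusted p = 2.53e-06) and ZAT12 rose 2.48-fold (1.31 ± 0.17, adjusted p = 2.75e-05). DREB2A rose 1.79-fold (0.84 ± 0.16, adjusted p = 0.00178). CBF1 stood at 1.46 ± 0.45 and missed the threshold (adjusted p = 0.0519), which it passed without a low-count filter, without organelle genes and with nuclear protein-coding genes alone (adjusted p = 0.0247, 0.0491 and 0.0466). CBF2 stood at 0.69 ± 0.31 (adjusted p = 0.250).

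The difference between these ABA changes was tested as an interaction, the log2 change in dxo1 minus that in Col-0, which 8.92% of all genes passed, 4.26% with a positive sign. ZAT10 and ZAT12 passed it, with opposite ABA changes in the 2 genotypes. The interaction was 2.99 ± 0.31 for ZAT10 (adjusted p = 5.46e-06) and 2.81 ± 0.28 for ZAT12 (adjusted p = 3.42e-06). DREB2A had an interaction of -0.04 ± 0.23 (adjusted p = 0.940), with a 95% interval of -0.49 to 0.40. A difference in its ABA change of more than 0.49 on the log2 scale therefore lay outside that interval. CBF1 had 1.90 ± 0.65 (adjusted p = 0.0794) and CBF2 had 1.39 ± 0.49 (adjusted p = 0.0866), and neither passed.

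The genotypes were then compared without hormone. All 3 members that passed were lower in dxo1, against 20.5% of genes called, with 10.4% lower. DREB2A was 2.04-fold lower (-1.03 ± 0.16 on the log2 scale, adjusted p = 0.000217), ZAT10 2.58-fold lower (-1.37 ± 0.21, adjusted p = 0.000188) and CBF1 2.63-fold lower (-1.39 ± 0.44, adjusted p = 0.0319). CBF1 rested on 49 reads in Col-0 NT and 27 in dxo1 NT, and its call was lost with the DESeq2 Wald test (adjusted p = 0.0858), without Col-0 NT replicate 1 (adjusted p = 0.169) or replicate 2 (adjusted p = 0.139), and without dxo1 NT replicate 1 (adjusted p = 0.221). ZAT12 stood at -0.41 ± 0.18 (adjusted p = 0.115) and CBF2 at -0.57 ± 0.31 (adjusted p = 0.214).

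With ABA the 2 zinc-finger genes lay on the other side. ZAT12 was 5.30-fold higher in dxo1 than in Col-0 (2.41 ± 0.21 on the log2 scale, adjusted p = 1.17e-07) and ZAT10 was 3.08-fold higher (1.62 ± 0.23, adjusted p = 2.88e-05). DREB2A was lower (-1.07 ± 0.16 on the log2 scale, adjusted p = 5.72e-05), close to its difference without hormone. These 3 calls, 2 higher and 1 lower, stand against 30.7% of all genes called, 2917 of them higher and 3108 lower. CBF1 stood at 0.51 ± 0.48 (adjusted p = 0.457). CBF2 stood at 0.82 ± 0.38 (adjusted p = 0.106) and passed only with library-size scaling (adjusted p = 0.0279). The 4 simple comparisons and the interaction share the same 8 libraries, so they are not independent of each other. Scaling by library size alone shifted the median gene to -0.14, -0.05, 0.17 and 0.28 on the log2 scale in the 4 comparisons, in the order given here. The calls of DREB2A, ZAT10 and ZAT12 were kept under that scaling.

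**Figure D3:**
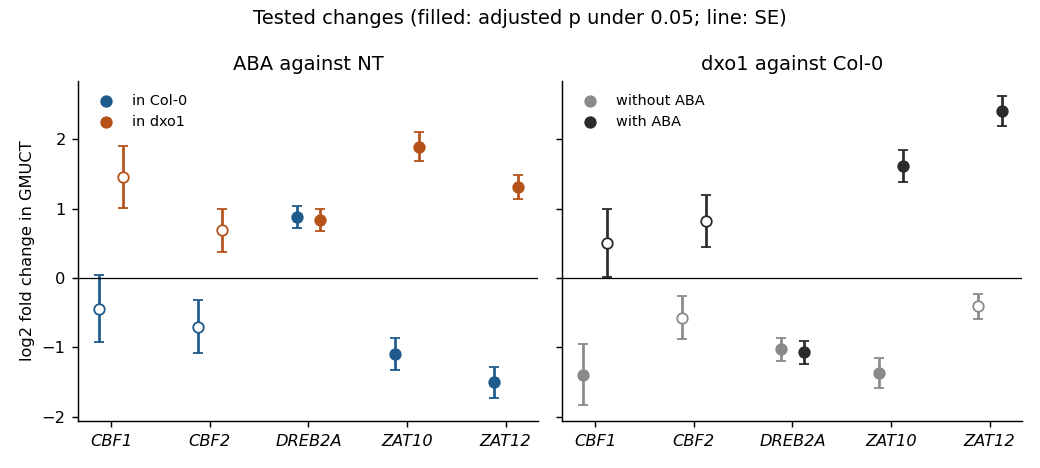
Log2 fold change in GMUCT with its SE (vertical axis) for the 5 members tested, by comparison, filled where the adjusted p was under 0.05. ABA changes of ZAT10 and ZAT12 are negative in Col-0 (-1.10 and -1.50) and positive in dxo1 (1.89 and 1.31), while DREB2A is positive in each (0.88 and 0.84).

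The CBF genes, whose products are activators of cold acclimation, were read at low levels in GMUCT. CBF2 stood at 3.65 and 4.23 CPM in Col-0 NT, 1.77 and 3.10 in Col-0 ABA, 2.27 and 3.01 in dxo1 NT, and 4.08 and 4.44 in dxo1 ABA. The groups overlapped for Col-0 ABA with dxo1 NT and for Col-0 NT with dxo1 ABA. CBF1 stood at 2.43 and 2.34 CPM in Col-0 NT, 1.77 and 1.74 in Col-0 ABA, 0.601 and 1.20 in dxo1 NT, and 3.17 and 1.89 in dxo1 ABA. The dxo1 NT libraries were lowest for CBF1. CBF3 had 9 and 6 reads in Col-0 NT, 1 and 2 in Col-0 ABA, 5 and 4 in dxo1 NT, and 5 and 10 in dxo1 ABA. It failed the low-count filter, and fitted without that filter its adjusted p lay between 0.294 and 0.561 in the 5 GMUCT comparisons. The 3 genes had their higher means in Col-0 NT and dxo1 ABA and their lower means in Col-0 ABA and dxo1 NT, an order in which the replicates of some groups overlap.

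Scaled per kilobase of annotated exon, the GMUCT level in Col-0 NT was 30.7 ± 2.19 CPM per kilobase for DREB2A, 16.5 ± 4.42 for ZAT10, 16.3 ± 0.879 for ZAT12, 4.0 ± 0.419 for CBF2, 1.96 ± 0.0540 for CBF1 and 0.521 ± 0.0577 for CBF3 (SD, n = 2). ZAT10 and ZAT12 did not differ beyond their spread. In dxo1 ABA the level was 30.4 ± 3.67 for ZAT12, 26.9 ± 2.00 for DREB2A and 23.5 ± 4.20 for ZAT10, and neighbours in this order did not differ beyond their spread. Per kilobase in Col-0 ABA, DREB2A stood at 56.6 ± 3.10, far above ZAT10 at 7.61 ± 1.31 and ZAT12 at 5.73 ± 0.295.

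Across the 8 GMUCT libraries, log2 levels of ZAT10 and ZAT12 had a Pearson r of 0.80, CBF2 and CBF3 one of 0.89, and DREB2A and ZAT12 one of -0.49. Pairs across the families were also alike. ZAT10 had an r of 0.82 with CBF3, 0.77 with CBF2 and 0.72 with CBF1. ZAT12 had 0.78 with CBF3 and 0.75 with CBF2, but 0.33 with CBF1. These are descriptions over libraries that share groups and depth, and CBF3 held 1 to 10 reads in each. Among 14671 candidate genes (mean of 5 CPM or more), the 3 whose pattern was most like that of ZAT10 were ERF5, an ethylene response factor (r = 0.99), PUB23, a U-box ubiquitin ligase (r = 0.96), and ASL1 (r = 0.96). Those most like ZAT12 were DOF1 (r = 0.98), CKX4, a cytokinin oxidase (r = 0.97), and FIM1, an actin-bundling fimbrin (r = 0.97). Those most like DREB2A were CSLC12 (r = 0.99), MYB34, a regulator of indole glucosinolate synthesis (r = 0.99), and KCS4, a fatty acid elongase (r = 0.99). The nearest genes were AT1G07870, SCL13 and MSS3 for CBF1 (r = 0.98, 0.94 and 0.93), EOL1, CIPK14 and AT5G11840 for CBF2 (r = 0.95, 0.93 and 0.93), and RWA4, CIPK14 and MYB48 for CBF3 (r = 0.98, 0.97 and 0.95). A high r does not measure the size of a change. ASL1, EOL1, AT5G11840 and RWA4 passed the edgeR test in no GMUCT comparison. The mean pattern of the members was nearest to ABF1, a bZIP factor that binds ABA-responsive elements, at r = 0.98. This mean pools unlike patterns, since DREB2A had an r of -0.15 with CBF2, -0.07 with CBF3, 0.07 with ZAT10 and 0.49 with CBF1. ABF1 stood at 70.0 ± 3.49 CPM in Col-0 NT and 55.7 ± 3.34 in Col-0 ABA, against 50.4 ± 4.64 in dxo1 NT and 74.4 ± 3.28 in dxo1 ABA (mean ± SD, n = 2). By edgeR's quasi-likelihood test its fall with ABA in Col-0 did not pass (adjusted p = 0.127). Its rise in dxo1 (adjusted p = 0.0247) and its interaction (adjusted p = 0.0135) did.

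A list of 19 rapid stress transcripts, known to rise within minutes of touch, wounding or elicitors, was set beside ZAT10 and ZAT12. This list and those below were chosen with earlier results of these data known. With ABA, 2 of its members were higher and 7 lower in Col-0 (median log2 fold change -0.44), and 11 were higher and none lower in dxo1 (median 1.02), against 26.7% and 7.68% of all genes called. For the interaction 13 were positive and 1 negative, with a median of 1.31, against 8.92% called and a median of 0.00 over all genes. WRKY33, a regulator of camalexin synthesis, fell by 0.90 ± 0.16 on the log2 scale in Col-0 (adjusted p = 0.000272) and rose by 1.49 ± 0.15 in dxo1 (adjusted p = 9.59e-07). Its level was 117 ± 0.357 CPM in Col-0 NT and 62.9 ± 7.72 in Col-0 ABA, against 106 ± 8.54 in dxo1 NT and 296 ± 5.58 in dxo1 ABA (mean ± SD, n = 2). ERF104, an ethylene response factor, had an interaction of 2.72 ± 0.26 (adjusted p = 2.06e-06) and ERF5 1.76 ± 0.27 (adjusted p = 0.000379). TCH3, a calmodulin-like protein of touched plants, went the other way in Col-0 and rose by 1.47 ± 0.16 in GMUCT (adjusted p = 8.94e-07). In total RNA TCH3 stood at -1.76 ± 0.40 for ABA in Col-0 (adjusted p = 0.0903), opposite in sign and short of the threshold. Of the list, 9 genes were tested in total RNA, where edgeR called 0 for ABA in Col-0 and 0 in dxo1, with 2 and 1 at an unadjusted p under 0.05, against 0.443% and 0.725% of all 4965 genes called. In the genotype comparisons, 2 members of the list were higher and 8 lower in dxo1 without hormone (median -0.40), against 20.5% of all genes called. With ABA 11 were higher and none lower in dxo1 (median 0.86), against 30.7% of all genes called. Across alternatives, the positive interactions numbered 10 to 15 of the list and the median stayed between 1.13 and 1.43, but the 7 lower calls in Col-0 varied from 4 to 9 and the 8 lower calls in dxo1 without hormone from 3 to 9.

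**Figure D4:**
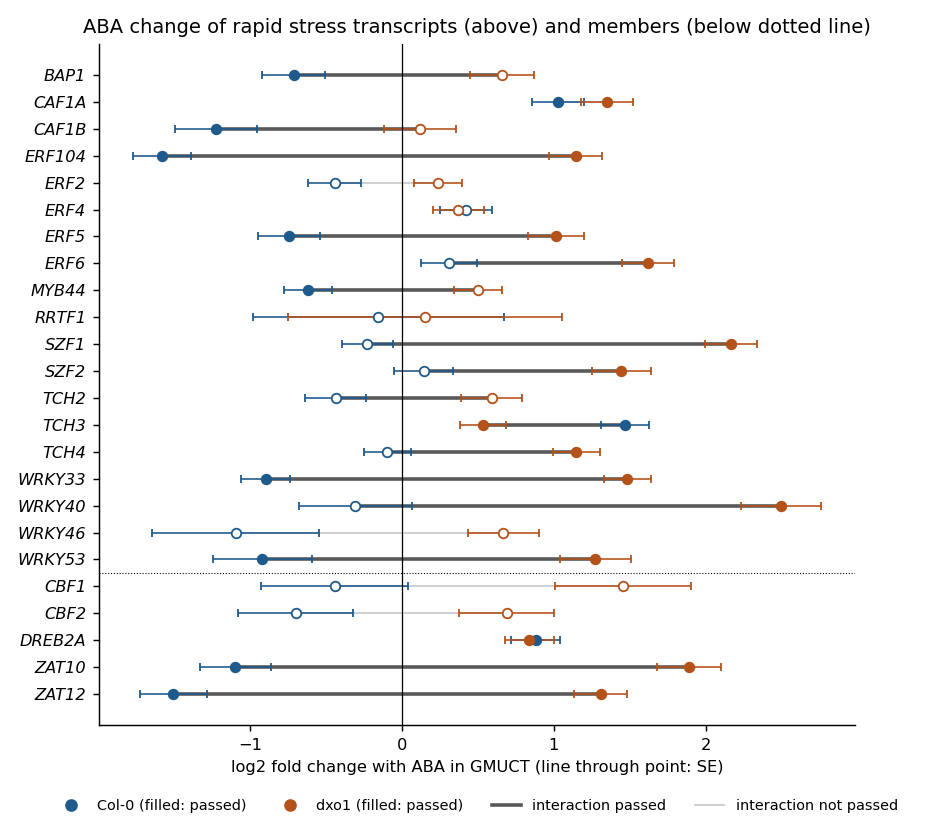
Log2 fold change with ABA in GMUCT (horizontal axis, with SE) in Col-0 and dxo1 for the 19 rapid stress transcripts and, below the dotted line, the 5 members tested, with filled points where the change passed and a thick joining line where the interaction passed. For most of the list, as for ZAT10 and ZAT12, the dxo1 point lies to the right of the Col-0 point, while TCH3 lies the other way and the 2 points of DREB2A nearly coincide.

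Other C2H2 zinc-finger genes, relatives of ZAT10 and ZAT12, were measured in 10 of 12 cases. With ABA 2 were higher and 3 lower in Col-0, against 26.7% of all genes called, and 2 were higher and none lower in dxo1, against 7.68%. The interaction passed for 5, against 8.92% of all genes, with 4 positive, which ranged from 2 to 4 over alternatives, and 1 negative, which ranged from 0 to 1. The list's median of 0.54 ranged from 0.05 to 0.89. ZAT6 had a level of 26.4 ± 0.627 CPM in Col-0 NT and 6.57 ± 0.294 in Col-0 ABA, against 6.81 ± 0.188 in dxo1 NT and 8.56 ± 2.18 in dxo1 ABA (mean ± SD, n = 2). It fell with ABA in Col-0 (-2.01 ± 0.23, adjusted p = 1.69e-06) and was lower in dxo1 without hormone (-1.95 ± 0.20, adjusted p = 2.55e-06), so that Col-0 NT stood apart from the other groups. ZAT7 had 106 and 61 reads in Col-0 NT, 3 and 0 in Col-0 ABA, 95 and 104 in dxo1 NT, and 73 and 64 in dxo1 ABA. ZAT8, its neighbour by identifier, had 30 and 17, 0 and 0, 26 and 22, and 10 and 12 reads in the same order. The ABA libraries of Col-0 were thus the ones with 3 or fewer reads of either gene. AZF3 went the other way with ABA in Col-0 and rose by 1.70 ± 0.24 (adjusted p = 2.33e-05).

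Relatives of the CBF and DREB2A proteins were tested in 12 of 15 cases. ABA was followed by 2 higher and 3 lower calls in Col-0, where the lower calls ranged from 1 to 4 over alternatives, and by 2 higher and 1 lower in dxo1. The interaction was positive for 2 and negative for none (median 0.41). Over all genes the called shares were 26.7%, 7.68% and 8.92%. DREB2G, a close relative of DREB2A, had 1 and 0 reads in Col-0 NT and 62 and 67 in Col-0 ABA, and in dxo1 it had 0 and 0 without hormone and 16 and 8 with ABA. RAP2.4 had an interaction of 1.45 ± 0.22 (adjusted p = 0.000333) and DREB26 one of 1.27 ± 0.22 (adjusted p = 0.00102). RAP2.4 fell with ABA in Col-0 by 1.04 ± 0.16 on the log2 scale (adjusted p = 5.92e-05), and DREB26 rose with ABA in dxo1 by 1.00 ± 0.15 (adjusted p = 0.000166). Of 19 regulators known to act upstream of the CBF genes, such as the clock factors that gate them by time of day, 1 was higher and 6 lower with ABA in Col-0, where the lower calls ranged from 3 to 8 over alternatives, against 26.7% of all genes called. In dxo1 1 was higher, a share near the 7.68% of all genes, and the interaction, called for 8.92% of all genes, was also near that share with 2 positive calls, the clock factors PRR5 (1.48 ± 0.22, adjusted p = 0.000304) and CCA1 (2.65 ± 0.54, adjusted p = 0.00362). MYB15, a repressor of CBF genes, had 10 and 4 reads in Col-0 NT, 5 and 0 in Col-0 ABA, 68 and 46 in dxo1 NT, and 32 and 34 in dxo1 ABA. It was higher in dxo1 without hormone (2.47 ± 0.50, adjusted p = 0.00176) and with ABA (2.86 ± 0.67, adjusted p = 0.00301). The time of harvest is not given in the sources used here. A list of 11 genes connected with DREB2A was followed, not all of which bind or control it. With ABA 1 was higher and 2 lower in Col-0, and 1, HSFA3, was higher in dxo1, shares near the 26.7% and 7.68% of all genes. For them the interaction was called for 0 by edgeR and 0 by the DESeq2 Wald test, with 4 at an unadjusted p under 0.05 and 0 to 1 called over alternatives.

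Genes known to carry the element that CBF and DREB2A proteins bind were followed as a list of 14. With ABA 10 of them were higher and none lower in Col-0 (median 1.12), and 9 were higher and none lower in dxo1 (median 1.09), against 26.7% and 7.68% of all genes called. In total RNA 7 of them were tested, and edgeR called 0 for ABA in Col-0 and 0 in dxo1, with 2 and 2 at an unadjusted p under 0.05. Over all genes tested there, 0.443% and 0.725% were called. COR15A, a chloroplast-stabilising protein of cold-acclimated leaves, rose from 6.54 ± 0.582 to 75.5 ± 8.71 CPM in Col-0 (3.52 ± 0.19 on the log2 scale, adjusted p = 1.66e-11) and from 10.3 ± 0.00137 to 85.1 ± 3.93 in dxo1 (3.05 ± 0.17, adjusted p = 7.53e-11). RD29A rose by 2.84 ± 0.17 in Col-0 (adjusted p = 1.61e-10) and by 1.89 ± 0.17 in dxo1 (adjusted p = 9.10e-08). KIN1, which shares much of its sequence with KIN2, rose by 5.74 ± 0.20 in Col-0 (adjusted p = 2.42e-14) and by 4.92 ± 0.20 in dxo1 (adjusted p = 5.35e-13). Without hormone 1 target was higher and 4 were lower in dxo1 than in Col-0, with a median of -0.03 and against 20.5% of all genes called, and the dehydrin LTI30 was among the lower ones (-1.36 ± 0.16 on the log2 scale, adjusted p = 1.07e-05). In all, 1 interaction was positive and 4 negative, against 8.92% of all genes called. These numbers ranged from 0 to 2 and from 0 to 4 over alternatives. With ABA 1 target was higher and 8 were lower in dxo1 than in Col-0 (median -0.45), against 30.7% of all genes called. The lower calls ranged from 4 to 9 over alternatives. These levels, too, are of uncapped RNA.

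Whether the same changes occurred in intact or NAD-capped RNA could not be read for these genes at the depth of the other assays. Over the 8 total RNA libraries there were 2 reads of CBF1, 8 of CBF2, 2 of CBF3, 18 of DREB2A, 7 of ZAT10 and 18 of ZAT12. Over the 8 NAD libraries there were 4, 8, 4, 15, 8 and 24 in the same order. Of the 6 members, 0 passed the low-count filter among the 4965 genes tested in total RNA, and 0 among the 5475 tested for NAD over total RNA. Fitted without a filter, 0 of their 54 comparisons in these assays passed by edgeR, and 0 had an unadjusted p under 0.05, the lowest being 0.0521.

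Levels were therefore described in coding RPM, with 95% exact Poisson intervals that cover counting error only. ZAT12 in total RNA had 3 and 0 reads in Col-0 NT, 4 and 0 in Col-0 ABA, 4 and 3 in dxo1 NT, and 2 and 2 in dxo1 ABA. The level was 7.09 (1.46 to 20.7) in Col-0 NT and 9.55 (2.6 to 24.4) in Col-0 ABA, against 16.1 (6.49 to 33.3) in dxo1 NT and 7.33 (2.0 to 18.8) in dxo1 ABA, and these intervals overlap. In NAD libraries ZAT12 had 2 and 2, 0 and 1, 2 and 7, and 6 and 4 reads in the same order. The NAD level was 15.5 (4.22 to 39.7) in Col-0 NT and 7.14 (0.181 to 39.8) in Col-0 ABA, against 31.4 (14.4 to 59.6) in dxo1 NT and 35.8 (17.2 to 65.8) in dxo1 ABA, again with overlapping intervals. DREB2A in total RNA had 6 and 0 reads in Col-0 NT, 1 and 5 in Col-0 ABA, 0 and 1 in dxo1 NT, and 3 and 2 in dxo1 ABA. No order between conditions can be read from these counts. ZAT10 had 0 to 2 reads in each total RNA library, and 5 of its 8 NAD reads came from Col-0 ABA replicate 1, the library with the fewest protein-coding reads. CBF1 and CBF3 had 0 reads in all total RNA libraries of Col-0, which allows up to 7.09 coding RPM in NT and 7.16 in ABA by a floor of 3 counts per group, while the 95% interval used for the other levels reaches 8.72 and 8.80.

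**Figure D5:**
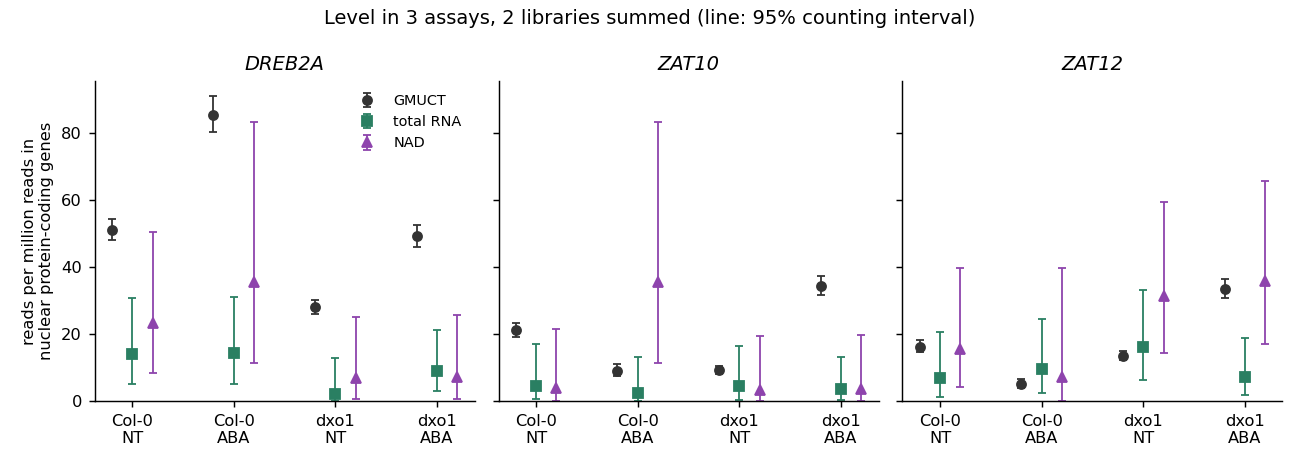
Level of DREB2A, ZAT10 and ZAT12 in 3 assays, in coding RPM (vertical axis) with 2 libraries summed per condition and lines for the 95% counting interval. DREB2A in Col-0 NT is at 51.1 in GMUCT and 14.2 in total RNA, and the intervals of NAD and total RNA are wide in every panel.

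Set side by side in coding RPM, DREB2A stood at 51.1 (48.0 to 54.3) in GMUCT and 14.2 (5.21 to 30.9) in total RNA of Col-0 NT, and at 85.5 (80.3 to 90.9) and 14.3 (5.25 to 31.2) in Col-0 ABA. In dxo1 NT the levels were 28.1 (26.1 to 30.2) and 2.31 (0.0584 to 12.8), and in dxo1 ABA they were 49.3 (46.1 to 52.7) and 9.16 (2.97 to 21.4). In dxo1 ABA, ZAT10 stood at 34.5 (31.8 to 37.4) in GMUCT and 3.66 (0.444 to 13.2) in total RNA, and ZAT12 at 33.5 (30.9 to 36.4) and 7.33 (2.0 to 18.8). These values are a description with no test: in a joint fit of both assays CBF2, DREB2A, ZAT10 and ZAT12 passed the low-count filter through their GMUCT reads alone, which favours a call in that direction.

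In the joint fit of 17930 genes, changes of the ratio of GMUCT to total RNA with ABA or genotype were called for 0 of 16 tests of members by edgeR and by the DESeq2 Wald test, and 3 had an unadjusted p under 0.05. Among all genes 0.625% were called for ABA in Col-0, 0.139% for ABA in dxo1, 0.190% for dxo1 without ABA and 0.563% for dxo1 with ABA. ZAT12 stood at 2.36 ± 0.97 for ABA in dxo1 (adjusted p = 0.549) and at 2.81 ± 1.19 for dxo1 with ABA (adjusted p = 0.338). For DREB2A the change with ABA was 1.09 ± 0.95 in Col-0 (adjusted p = 0.697) and -1.22 ± 1.57 in dxo1 (adjusted p = 0.886). The GMUCT changes of ZAT10, ZAT12 and DREB2A and changes in the level of their transcripts cannot be told apart here, since total RNA gave at most 6 reads of any member per library.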

How the data were processed

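Per the labels' protocols, libraries were read as single-end, strand-specific reads of 50 nt, and per the submitters' processing notes, cutadapt, STAR 2.4.2a, HTSeq and the TAIR10 build were used. Whether HTSeq counted by strand is not given in the sources used here. The deposited values are raw counts of reads per gene, without normalization. Rows that name no gene (27.3% to 40.2% of reads in GMUCT, 82.4% to 96.1% in NAD, 93.4% to 97.8% in total RNA, mostly reads without a unique position) were left out. Names came from a RefSeq TAIR10.1 table that matched 28009 identifiers (97.3%).

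Counts were fitted in edgeR 4.0.16 under R 4.3.3, with filterByExpr at a minimum count of 10, TMM scaling, quasi-likelihood tests and Benjamini-Hochberg adjustment at 0.05, for GMUCT, total RNA, NAD with total RNA, and GMUCT with total RNA. Labels of groups were the only terms. SE was taken as the size of a log2 fold change divided by the root of its F, and intervals are 1.96 SE. Pattern likeness used log2 CPM with a prior count of 2. Alternatives were no low-count filter, scaling by library size only or by DESeq2 size factors, DESeq2 1.42.0's Wald test, no organelle genes, a replicate block, the groups of a contrast alone, each library left out, and, added after seeing the data, a table of nuclear protein-coding genes. Simulated data were run through the fits of GMUCT alone and of total RNA alone, with a pass condition for GMUCT only. The joint fits were not tested in this way. In each GMUCT comparison up to 4 called genes per list were named by smallest p, and not all are printed. Members, lists and tests were chosen with earlier results of these data known.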

Additional observations from a re-analysis of the deposited data

Results flagged for a closer look

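ZAT10 differed in its ABA change between the genotypes: the log2 change in GMUCT was 2.99 higher in dxo1 than in Col-0, with a fall in Col-0 and a rise in dxo1. ZAT12 did so as well, by 2.81. The interaction term of the model gave these differences (adjusted p = 5.46e-06 and 3.42e-06), and 15 of 15 alternatives, which refit the same libraries, kept each call. For ZAT12 and for ZAT10, each ABA library lay below each NT library in Col-0 and above each NT library in dxo1. A list of 6 root genes was higher with ABA in each genotype. Its sum was 80.8 to 87.3 coding RPM in Col-0 NT and 102 to 110 in Col-0 ABA. In dxo1 it was 90.3 to 99.5 in NT and 131 to 132 in ABA libraries. The part of this list in the differences of ZAT10 and ZAT12 was not tested. Groups of 2 do not allow a test for outlying samples.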

How the results depend on the processing

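In GMUCT the calls and directions of DREB2A, ZAT10 and ZAT12 held in all 12 alternatives for each simple comparison and, for ZAT10 and ZAT12, in all 15 for the interaction. The interaction of DREB2A, which never passed, turned to 0.072 with library-size scaling and ranged from -0.17 to 0.10 over left-out libraries. Replicate numbers did not pair the GMUCT samples (r of deviations -0.05 to 0.12). In total RNA r was 0.02 to 0.27, with 3 of 6 pairs of groups above 0.1. In GMUCT and in the joint fit with total RNA a replicate block changed no call of a member. It moved the genes called in GMUCT from 5250 to 5443 for ABA in Col-0 and from 1753 to 1918 for the interaction. Library-size scaling changed the split of calls over all genes from 2745 higher and 2505 lower to 2121 and 3671 for ABA in Col-0, from 1981 and 2037 to 3475 and 1301 for dxo1 without ABA, from 2917 and 3108 to 5642 and 1907 for dxo1 with ABA, and from 836 and 917 to 1188 and 720 for the interaction.

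GMUCT over total RNA, whose calls support no statement here, depended on the scaling. With library size alone members called numbered 4 (Col-0 NT), 2 (Col-0 ABA) and 3 (dxo1 NT), in place of 1 each, and ZAT12 turned to 1.46 in Col-0 ABA and 2.34 in dxo1 NT, and CBF2 to 0.95 in dxo1 NT and 2.38 in dxo1 ABA. Left-out libraries gave 0 to 1 calls in Col-0 NT and 0 to 1 in dxo1 NT, and took CBF2 from -1.11 to 6.74 in Col-0 ABA and from -1.37 to 7.56 in dxo1 ABA, and ZAT12 from -1.44 to 7.96 in Col-0 ABA. For the change of the ratio, which no member passed, library-size scaling turned ZAT10 to -0.048 for ABA in Col-0, and CBF2 to 0.20 and DREB2A to 0.11 for dxo1 with ABA. Left-out libraries spanned, for ABA in Col-0, -8.32 to 2.87 for DREB2A, -7.71 to 6.73 for ZAT10 and -10.1 to 6.90 for ZAT12. They spanned -7.48 to 8.37 for DREB2A for dxo1 without ABA, and, for dxo1 with ABA, -6.96 to 7.44 for CBF2, -2.17 to 0.59 for DREB2A, -5.56 to 8.24 for ZAT10 and -5.78 to 3.62 for ZAT12. Cause was not tested for scaling. A left-out total RNA library can leave a member with 0 reads. Of 95 values of list genes, 66 kept their call in each alternative in which the gene was tested, and 0 reversed. Depth limits total and NAD RNA of these genes to 0 to 7 reads per library.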
